A study of Mus musculus with 83 samples.

Results

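The AP-1 family of transcription factors was followed through brown adipogenesis in culture and in brown adipose tissue. The 8 genes taken were the FOS family genes Fos, Fosb, Fosl1 and Fosl2, the JUN family genes Jun, Junb and Jund, and Atf3. They were named by a rule that uses no measured value, but with earlier results of these data known. The culture tables list 7 of the 8 among 11144 genes, all but Fosb, and the tissue table has a transcript of all 8 among 22463 matched genes. Fosb has no culture value. Each listed gene reached at least 1.00 FPKM on some day, but why Fosb is not listed is not stated, so its level there is unknown.

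The culture libraries came from C57BL/6J brown preadipocytes carrying Pparg-flox/flox alleles, isolated from the interscapular fat of newborn mice and immortalized with SV40 large T antigen. Proliferating cells were taken at day -3, confluent cells at day 0, immature adipocytes at day 2 and mature adipocytes at day 7. Adipogenesis was started at day 0 with a cocktail of dexamethasone, IBMX, indomethacin, insulin and T3, and fresh medium with serum, insulin and T3 was given from day 2 onwards. The tissue library came from interscapular brown fat of C57BL/6J animals aged 16 weeks. The labels give no genotype for this tissue beyond the strain and do not say whether animals were pooled, or how long after a medium change each culture was harvested. All of the culture cells carry the T antigen and, by the label, the floxed Pparg alleles, and no separate line or clone is named.

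Each day and the tissue had 1 library, so no difference below has a replicate check and none was tested. Culture values are FPKM (fragments corrected for transcript length and for the size of the library), and the depth behind them is unknown. A gene was called higher or lower when log2(FPKM + 1) differed by at least 1, which is 2-fold on that scale, and its larger value was at least 1 FPKM. As a check of the labels, the summed level of 12 adipocyte markers was 85.3 FPKM at day -3 and 7887 at day 7. The 7 brown fat markers with culture values summed to 4.34 and 176 FPKM on these days, and all 9 on the list had a tissue value above 0. The brown fat sum at day 7 was mostly Cox7a1 with 132 FPKM, followed by Ebf2 with 24.5. Ucp1 was at 1.22 FPKM at day 7 and at 1015 RPKM in tissue. Among the lists for other cells, 7 smooth muscle and pericyte markers summed to 7614, 1053, 372 and 380 FPKM from day -3 to day 7, mostly Acta2 with 6017 at day -3 and 223 at day 7. The 4 endothelial markers summed to 46.8, 48.6, 27.2 and 16.4 FPKM and the 4 macrophage ones to between 5.47 and 7.59. The 3 skeletal muscle markers with culture values summed to 7.12, 2.03, 2.06 and 67.3 FPKM, of which Mb alone was 65.1 at day 7 while Acta1 went from 6.19 at day -3 to 1.14 at day 7. The 2 nerve and Schwann cell ones summed to 30.2, 96.7, 107.7 and 164, nearly all of it Pmp22. The 1 lymphocyte marker and the 1 red blood cell marker with culture values stayed below 5 FPKM. Their part in the results was not tested. The libraries are bulk RNA, in which fewer cells of a type and less RNA per cell cannot be told apart.

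AP-1 is a dimer of basic leucine zipper proteins. FOS proteins bind DNA only when paired with a partner such as a JUN protein, whereas JUN proteins can also pair with each other, and ATF3 pairs with itself or with JUN proteins. The dimers bind a short palindrome called the TPA response element and, with ATF partners, the cyclic AMP response element. Several of these genes are immediate early genes, transcribed within minutes of a growth factor, serum or stress signal and soon shut off, and in cultured preadipocytes Fos and Jun are known to be induced briefly by the adipogenic hormones.

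The summed level of the family was highest in proliferating cells and lowest in immature adipocytes, and in mature adipocytes all genes but Fosl1 were again well above their day 2 level. All 7 genes had their lowest value of the 4 days at day 2, as did 17.0% of all 11144 genes; for Fosl1 days 2 and 7 were close, and after scaling to a common FPKM total 6 of 7 were lowest there. Of the 7 genes, 5 were highest at day -3, where 28.4% of all genes were highest, so that 5 of 7 combined both features, as did 6.66% of all genes. After the same scaling 4 of 7 were highest at day -3, Jund no longer among them, and 3 of 7 combined both, against 19.5% and 3.99% of all genes. Fos and Atf3 were highest at day 7. By rank within each library, 6 of the 7 were lowest at day 2. The exception was Fosl1, which stood at percentile 8.50 at day 2 and 6.33 at day 7.

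**Figure D1:**
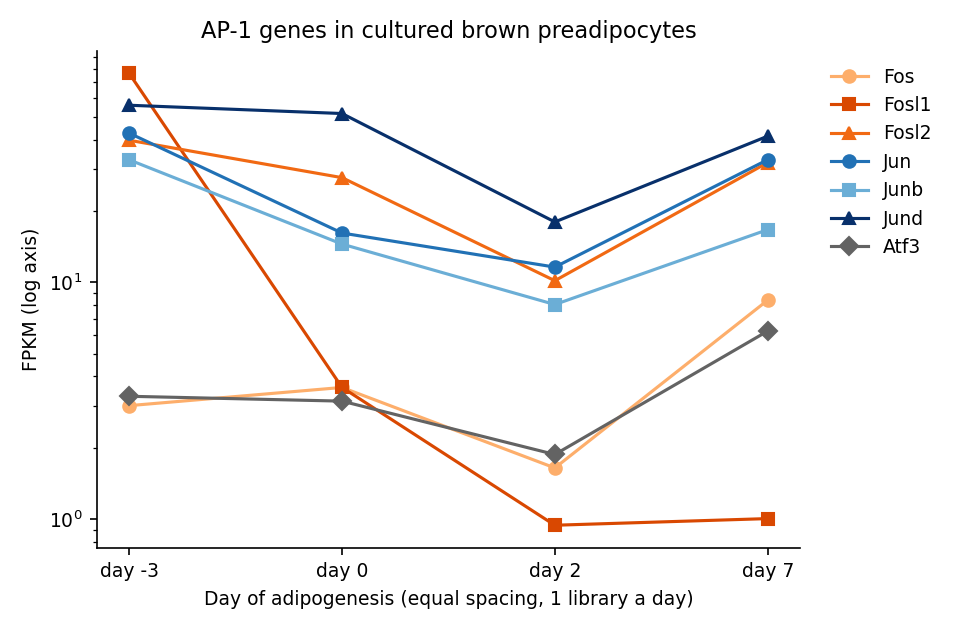
FPKM of the 7 AP-1 genes with culture values (log axis) on each of the 4 days, 1 library a day, with FOS family genes in orange, JUN family genes in blue and Atf3 in grey. All 7 lines have their lowest point at day 2, and Fosl1 is the only one near 1 FPKM at day 7.

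Among the FOS family, Fosl1 had the widest range. It encodes Fra-1, a FOS protein without the C-terminal activation domain of c-Fos, known to accumulate in growing and motile cells. Its 4 values, ordered from day -3 to day 7 as in all such series here, were 76.4, 3.60, 0.940 and 1.00 FPKM. It was the highest of the 7 genes at day -3 and the lowest at days 2 and 7, and its largest value was 81.3 times its smallest. Its log2 difference from day -3 to day 0 was -4.07, which ranked 4th from the bottom among 10602 compared genes.

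Fosl2, which encodes Fra-2, was the main FOS family transcript from day 0 on. Its values were 39.8, 27.7, 10.2 and 32.1 FPKM. The day 2 value stood apart below the other 3, and days -3 and 7 differed by 0.31 on the log2 scale, day 7 being lower. Fos, the classic immediate early gene that encodes c-Fos, was low throughout, at 3.01, 3.59, 1.64 and 8.40 FPKM. Day 7 was its highest day, 5.12 times the level of day 2.

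The highest value of each JUN family gene was 3.11 to 4.09 times its lowest. Jund encodes JunD, the member known for steady expression in resting cells. Its values were 56.0, 51.7, 18.0 and 41.5 FPKM, and from day 0 on it was the highest of the 7 genes. Jun encodes c-Jun, a strong activator. It was at 42.7, 16.2, 11.6 and 33.0 FPKM, so that days 0 and 2 were low and days -3 and 7 high. Junb encodes JunB, which can oppose c-Jun. It was at 32.9, 14.5, 8.06 and 16.7 FPKM, and day 7 stayed nearer to day 0 than to day -3.

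Atf3, a stress-induced factor that often acts as a repressor, stayed low at 3.30, 3.15, 1.87 and 6.22 FPKM. As with Fos, its highest value was at day 7. The highest values of Fos and Atf3 were below the lowest value of Jund.

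Summed over the 7 genes, the AP-1 pool came to 254, 120.4, 52.3 and 139 FPKM on the 4 days. Fosl1 made up much of the first difference, and without it the sums of the other 6 genes were 178, 117, 51.3 and 138 FPKM. The makeup of the pool shifted with it. Fosl1 held 64.1% of the summed FOS family level at day -3, 10.3% at day 0 and 2.42% at day 7, while Fosl2 held 33.4%, 79.4% and 77.3%. Fos held 2.52% at day -3 and 20.3% at day 7. JUN family transcripts outnumbered FOS family ones on every day, with a ratio of 1.10, 2.36, 2.95 and 2.20 in day order and with Fosb missing from the FOS sum. Jund was the largest JUN transcript each day, with 42.5% of the JUN sum at day -3 and 62.8% at day 0.

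**Figure D2:**
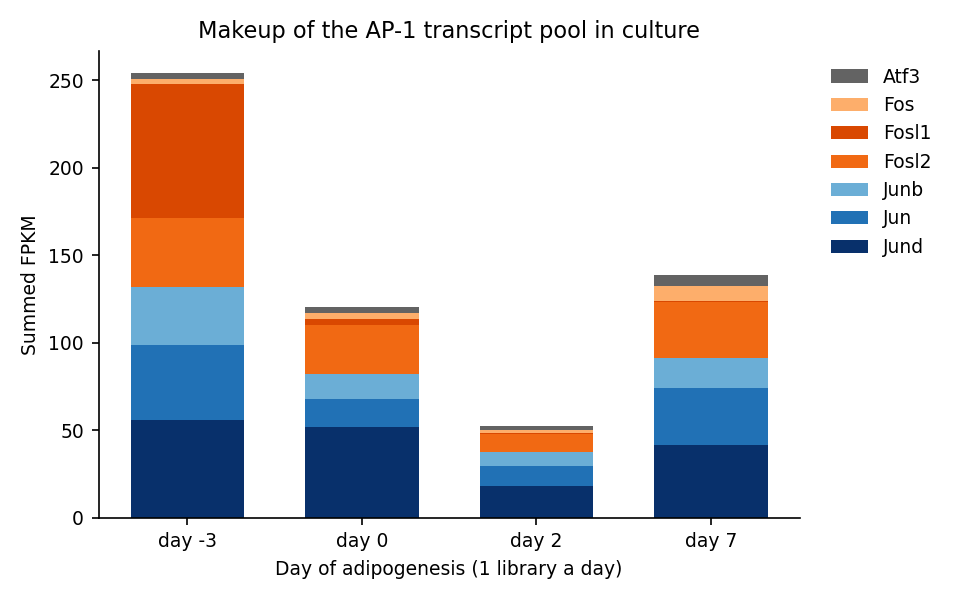
Summed FPKM of the 7 AP-1 genes on each day, 1 library a day, with each gene's part stacked. The total is 254 FPKM at day -3 and 52.3 at day 2, and the Fosl1 part is large at day -3 alone.

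The first comparison set proliferating against confluent cells. At confluence 3 of the 7 genes were at least 2-fold lower and 0 were higher, where 5.43% of all compared genes were lower and 11.3% were higher. The 3 were Fosl1, Jun with a log2 difference of -1.35 and Junb with -1.13. Fosl2 differed by -0.51 and Fos by 0.20. Jund at -0.11 and Atf3 at -0.05 were near 0, and both turned sign, to 0.09 and 0.11, when each library was scaled to the same FPKM total. That scaling raised the median of the same 10602 genes by 0.18 on the log2 scale and put Junb at -0.93, inside 2-fold. A pseudocount of 5 put it at -0.96.

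The second comparison covered the days after induction. At day 2, 3 of the 7 genes were at least 2-fold lower than at day 0 and 0 were higher, against 10.7% and 6.18% of all genes. Jund differed by -1.47 on the log2 scale, Fosl2 by -1.36 and Fosl1 by -1.24. The other 4 genes were also below their day 0 values, with differences from -0.45 for Jun to -0.80 for Fos. The median over the 7 genes was -0.80 and that over all genes was -0.01. The calls at low values depend on the scale: with a pseudocount of 0.1 Fos was at -1.08, and with one of 5 Fosl1 was at -0.53.

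Mature adipocytes were then set against immature ones. At day 7, 5 of the 7 genes were at least 2-fold higher than at day 2 and 0 were lower, against 9.62% and 5.14% of all genes. Fos had a log2 difference of 1.83, Fosl2 of 1.57, Jun of 1.43, Atf3 of 1.33 and Jund of 1.16. Junb, at 0.97, lay just inside the 2-fold rule and passed it, at 1.04, with a pseudocount of 0.1. Fosl1 differed by 0.05, and by -0.00061 after scaling to a common FPKM total, and stayed near 1 FPKM. Fosl2 and Jund were both at least 2-fold lower at day 2 than at day 0 and at least 2-fold higher at day 7 than at day 2. Of all genes 1.68% passed the 2-fold rule in both steps in this way. This comparison and the one before share the day 2 library, so that a low value there lowers one difference and raises the other. With day 2 left out, day 7 against day 0 put 1 gene higher, Fos at 1.03, and 1 lower, Fosl1 at -1.20, where 12.3% and 12.7% of all genes were called. Jun came to 0.99 and Jund to -0.31.

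From day -3 to day 7, Fos was higher, with a log2 difference of 1.23, and Fosl1 was lower, with -5.27, the other 5 lying within 2-fold. Of all genes 20.3% were higher and 14.7% were lower over this interval. The Fos call was lost with a pseudocount of 5, which gave 0.74. Junb lay close to the rule at -0.94 and passed it at -1.01 after division by median-ratio factors.

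**Figure D3:**
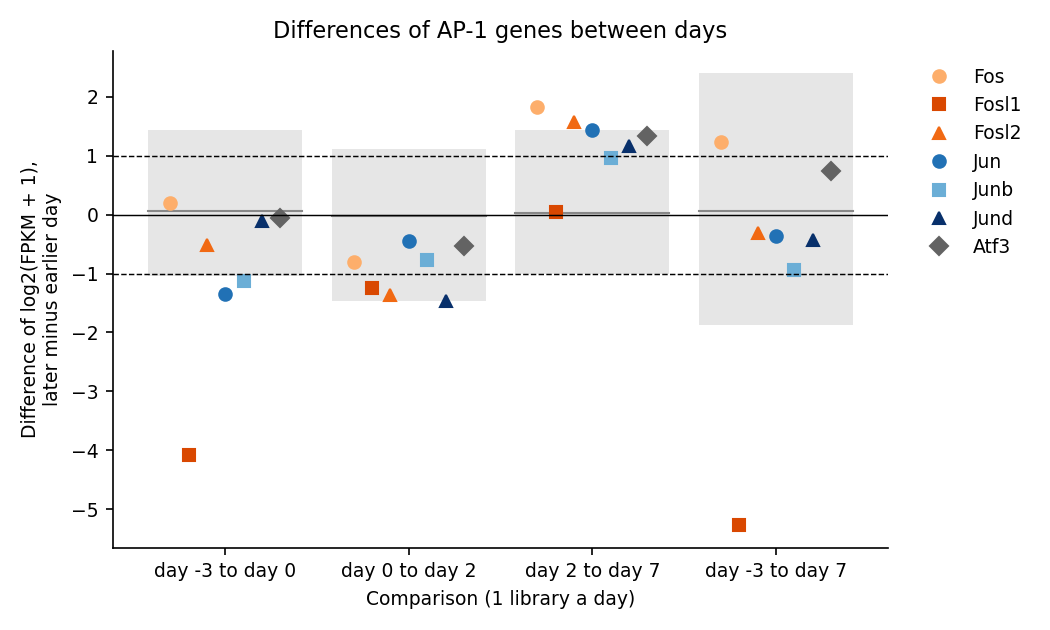
Difference of log2(FPKM + 1), later minus earlier day, of each of the 7 AP-1 genes in 4 comparisons, 1 library a day. Grey boxes span the 5th to 95th percentile of all compared genes, grey lines are their medians and dashed lines mark the 2-fold rule; 5 genes lie above the upper dashed line from day 2 to day 7.

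The likeness of the members' time courses was measured between each pair. The distance used was the root mean square difference of mean-centred log2(FPKM + 1) values over the 4 libraries, a description that rests on 4 points. Fos and Atf3 were 0.20 apart, Fosl2 and Jund 0.21, and Jun and Junb 0.29, the 3 smallest distances among the 21 pairs. These are not separate groups, since Junb was almost as close to Fosl2, at 0.31, as to Jun, and both Junb and Jund and Fosl2 and Jun were 0.37 apart. Fosl1 was at least 1.62 from each other gene. The sequences just before the RefSeq starts of these 6 genes are shown because 2 of the 3 nearest pairs cross family lines. They are the last 120 bases before the start, 5′ to 3′ on the gene's strand, from RefSeq in build GRCm38.p6, another build than the mm9 of the expression files. Fos lies at chr12:85473770-85473889 (+), Atf3 at chr1:191183334-191183453 (-), Jun at chr4:95052223-95052342 (-), Junb at chr8:84978749-84978868 (-), Fosl2 at chr5:32136352-32136471 (+) and Jund at chr8:70697619-70697738 (+). Capitals mark TGACG, the core of the cyclic AMP response element, TGACATCA, the AP-1 and ATF site form known from the Jun promoter, and CCAAT, each read on either strand.
Fos: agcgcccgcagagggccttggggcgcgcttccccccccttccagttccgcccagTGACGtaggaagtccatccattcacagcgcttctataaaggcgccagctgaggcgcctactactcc
Atf3: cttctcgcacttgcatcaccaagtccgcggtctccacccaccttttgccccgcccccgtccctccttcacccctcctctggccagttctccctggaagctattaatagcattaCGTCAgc
Jun: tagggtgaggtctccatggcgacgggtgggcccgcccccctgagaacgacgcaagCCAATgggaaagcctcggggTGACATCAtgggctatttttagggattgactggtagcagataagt
Junb: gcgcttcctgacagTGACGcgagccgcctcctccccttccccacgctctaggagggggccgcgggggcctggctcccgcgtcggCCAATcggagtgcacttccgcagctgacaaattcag
Fosl2: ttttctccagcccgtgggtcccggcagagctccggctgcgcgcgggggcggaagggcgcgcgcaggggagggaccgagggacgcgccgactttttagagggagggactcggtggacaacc
Jund: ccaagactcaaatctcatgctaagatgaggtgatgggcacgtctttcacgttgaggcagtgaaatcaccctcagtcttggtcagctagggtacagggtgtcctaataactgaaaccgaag

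Within 250 bases before the start, both members of the Fos and Atf3 pair held TGACG, at positions -66 to -62 in Fos and -7 to -3 in Atf3, the base before the start being -1. Fos had another at -129 to -125, before the stretch shown. Both members of the Jun and Junb pair held CCAAT, and neither Fosl2 nor Jund held either motif. Jun held TGACATCA at -45 to -38, and Junb held TGACG at -106 to -102. Of the 7 member promoters in the table, which has none for Fosl1, 4 held TGACG, namely those of Atf3, Fos, Fosb and Junb. CCAAT was in 2 of the 7 and TGACATCA in 1. Of 32851 promoters of the same length, 17.8% held TGACG, 33.8% CCAAT and 2.93% TGACATCA, so the CCAAT count is near the share of all promoters. The pairs were picked by their time courses, and whether these motifs go with likeness of course was not tested. The full TPA response element TGACTCA (4.46% of promoters), the full cyclic AMP response element TGACGTCA (1.55%), which contains TGACG, and the CArG box, the site of serum response factor (1.47%), were in none of the 7 member promoters in the table, Fosb included. A match is a run of letters and not a shown binding site, and the windows may miss elements farther away.

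The genes with the most similar course were searched among all 7857 genes that reached 10 FPKM on a day, 5 of them members, and the 2 nearest to each member were all outside the family. Most depend on the scale: with a pseudocount of 5, 4 of these 14 were again among the 2 nearest, namely Mrpl54 and Tpd52 for Fosl2, Slc6a6 for Jun and Anxa7 for Jund. Nearest to Jund was Anxa7, an annexin, at a distance of 0.04, with 34.0, 30.0, 10.0 and 23.4 FPKM on the 4 days. Nearest to Junb was Klf6, itself an immediate early transcription factor, at 0.12, with 55.4, 24.6, 11.2 and 27.2 FPKM. The gene nearest to Jun was Slc6a6, the taurine transporter, at 0.09, followed by Nr1d1, the clock repressor REV-ERBα, at 0.10. Nearest to Fosl2 was Mrpl54 at 0.07, nearest to Fos was Snx10 at 0.06 and nearest to Atf3 was Txnrd2 at 0.06. Fosl1 had no neighbour closer than Tmem171 at 0.28. Next was Tnfrsf12a, the receptor of the cytokine TWEAK, also at 0.28, with 295, 26.95, 9.89 and 11.4 FPKM.

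The related genes were read from 7 lists without the 8 members, counting only listed genes with culture values. Their counts stand against the shares of all genes given above, which were 5.43% lower and 11.3% higher at day 0, 10.7% and 6.18% at day 2 and 5.14% and 9.62% at day 7, each against the previous sampled day. The first list held other immediate early genes. At day 0, 10 of 21 were at least 2-fold lower than at day -3 and 1 was higher. At day 2, 9 of 21 were lower than at day 0 and 1 was higher, and at day 7, 10 of 20 were higher than at day 2 and 0 were lower. The medians of the 3 steps were -0.90, -0.68 and 1.01 on the log2 scale, where those of all genes were 0.06, -0.01 and 0.02. Of the 21, 15 were lowest at day 2. Egr1, a zinc finger factor induced by the same signals as Fos, was at 36.6, 85.8, 28.1 and 89.0 FPKM on the 4 days. Cyr61, a matricellular protein, had 616 FPKM in proliferating and 64.9 in confluent cells. Maff, a small MAF protein that stands in this list and among the partners, was at 35.2, 6.47, 3.68 and 34.3 FPKM, low at days 0 and 2 and high at the ends, as Jun was.

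Counts among other dimer partners were small. Of 13 other basic leucine zipper genes, 2 were higher and 2 lower at day 0, 1 was higher at day 2, and 3 were higher and 1 lower at day 7, where 1 gene is 7.69% of the list. Maf, a large MAF protein, was highest where the members were lowest, with 0.458, 7.10, 31.2 and 3.59 FPKM. Ddit3, the stress factor CHOP, had 61.6 FPKM in immature and 184 in mature adipocytes.

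Among the upstream signalling genes, MAP kinase genes numbered 1 higher and 1 lower of 20 compared at day 0, 2 lower of 21 at day 2 and 3 higher of 21 at day 7. The counts at days 2 and 7 are 9.52% and 14.3% of the list, near the 10.7% and 9.62% of all genes. The 3 higher at day 7 were Map3k5 at 1.18 and 6.48 FPKM, Map3k1, an activator of the JUN kinase pathway, at 10.1 and 33.5, and Mapk3, which encodes ERK1, at 58.5 and 144. Of the 6 genes of serum response factor and its cofactors, 1 was lower and 0 were higher at each consecutive step. In this list 1 gene is 16.7%. From day -3 to day 7, 3 of the 6 were lower and 0 higher, against 14.7% and 20.3% of all genes. Srf itself was at 61.9, 20.3, 14.8 and 12.0 FPKM and so had no return at day 7. Of 15 MAP kinase phosphatase and Sprouty genes, which damp the signal, 4 were lower at day 0, 3 were lower and 2 higher at day 2, and 4 were lower and 1 higher at day 7. The shares of all genes that were lower in these steps were 5.43%, 10.7% and 5.14%. The 1 higher at day 7 was Dusp1, at 6.85 and 37.5 FPKM, while Dusp5, an ERK phosphatase, had 41.8 FPKM in proliferating and 5.002 in confluent cells. Of 10 genes that control FOS and JUN turnover, 1 differed by 2-fold at a consecutive step: Zfp36l1, which promotes the decay of AU-rich transcripts, had 15.4 FPKM in proliferating and 46.0 in confluent cells.

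**Figure D4:**
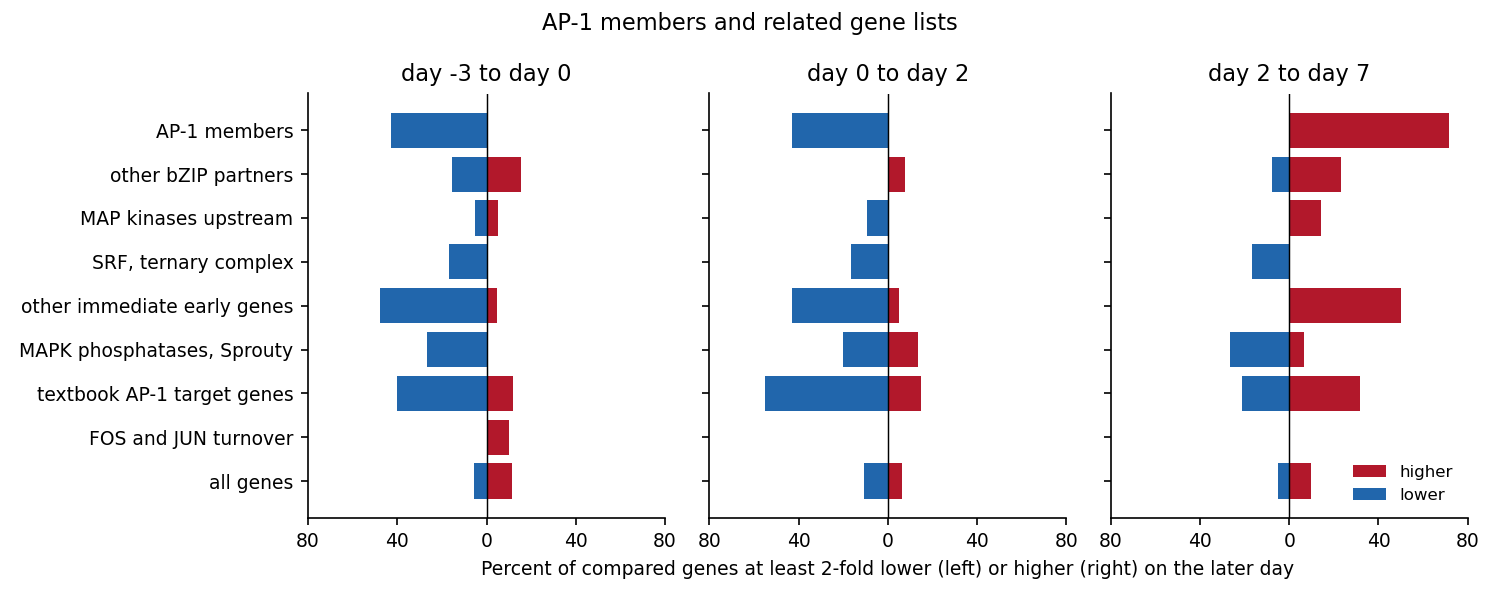
Percent of compared genes at least 2-fold lower (blue, left) or higher (red, right) on the later day, for the AP-1 genes, 7 related lists and all genes, in the 3 consecutive steps with 1 library a day. Counting only genes past the 2-fold rule, both the AP-1 and the other immediate early genes are mostly on the left in the first 2 panels. In the third panel they are on the right.

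Genes known as AP-1 targets were mostly lower by the end. Of 25 compared between day -3 and day 7, 16 were at least 2-fold lower and 4 were higher, with a median of -2.30, where 14.7% of all genes were lower and 20.3% higher with a median of 0.07. At day 0, 10 of 25 were lower and 3 higher than at day -3, against 5.43% and 11.3% of all genes. Ptgs2, the inducible prostaglandin synthase, had 89.6 FPKM in proliferating and 6.04 in confluent cells. At day 2, 3 of 20 were higher than at day 0 and 11 lower, against 6.18% and 10.7%, the cyclin gene Ccnd1 being at 20.6 and then 1.38 FPKM. At day 7 the list split, with 6 of 19 higher and 4 lower than at day 2, against 9.62% and 5.14%. Hmox1, heme oxygenase, was at 42.9 and 476 FPKM, and Gja1, the gap junction protein connexin 43, was at 152 and 31.6. Each of these genes also answers to other factors, and binding of AP-1 to them was not measured.

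In brown adipose tissue the genes with culture values stood in the same order within each family as in the day 7 culture. Jund was at 9.94 RPKM (reads corrected in the same way), Jun at 6.39, Junb at 4.17, Fosl2 at 3.79, Atf3 at 1.04, Fos at 0.715, Fosl1 at 0.439 and Fosb at 0.149. Jun, Junb and Jund have no introns in the mouse, so their RefSeq lengths gave read counts: 153 reads for Jund, 109 for Jun and 41 for Junb. The exact 95% Poisson intervals, which cover counting error only, were 8.43 to 11.6 RPKM for Jund, 5.25 to 7.71 for Jun and 2.99 to 5.65 for Junb. The intervals of Jund and Jun do not overlap, while those of Jun and Junb do. The length of the whole gene allows at most 5 reads for Fosb, 12 for Fos and 19 for Fosl1, so these values rest on few reads. In this library 3 reads on 1 kb are worth 0.561 RPKM. Fosb and Fosl1 lie below that limit and Fos lies not far above it. In the FOS family sum Fosl2 held 74.5% and Fosl1 8.61%. The JUN sum was 4.02 times the FOS sum, and 4.14 times without Fosb.

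Within-library percentiles were compared over the 10995 genes with a value in both tables, since FPKM and RPKM were made separately. Of the 7 genes 6 ranked lower in tissue than at day 7, and 2 of them by at least 20 points, where 13.2% of all genes ranked that much lower and 13.1% that much higher. Fosl2 was at percentile 76.6 in culture and 43.9 in tissue, and Fos was at 35.8 and 15.1. The Fos difference of -20.7 points just passed the rule, and its tissue value rests on at most 12 reads. Jun, at 77.4 and 59.2, came close, and Atf3 was at 28.6 and 19.1. Jund was at 82.9 and 71.8 and Junb at 56.7 and 46.8. Fosl1, low in both and with at most 19 reads in tissue, was at 6.30 and 11.4. The median over the 7 genes was -11.2 points and that over all genes 0.42. Ranked among all genes of each table, which for the tissue adds many silent genes, the sign of most differences turned. Then 6 of the 7 ranked higher in tissue and 1, Fosl2, lower, with a difference of -7.80 points. By at least 20 points 0 were lower and 2, Fosl1 and Atf3, were higher, as were 50.1% of all genes. The median over all genes was 20.1 points higher in this ranking and that over the 7 genes 13.6. The median of the members thus lay below that of all genes in both rankings. Markers of other cell types were present in the tissue: the 10 skeletal muscle markers summed to 1623 RPKM, the 12 endothelial ones to 249, the 9 smooth muscle and pericyte ones to 213, 12 macrophage ones to 65.1, the 7 nerve and Schwann cell ones to 56.3, with Mag at 0, 4 red blood cell ones to 208 and the 8 lymphocyte ones to 1.98, with Cd3e at 0. Their part in these values was not tested.

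**Figure D5:**
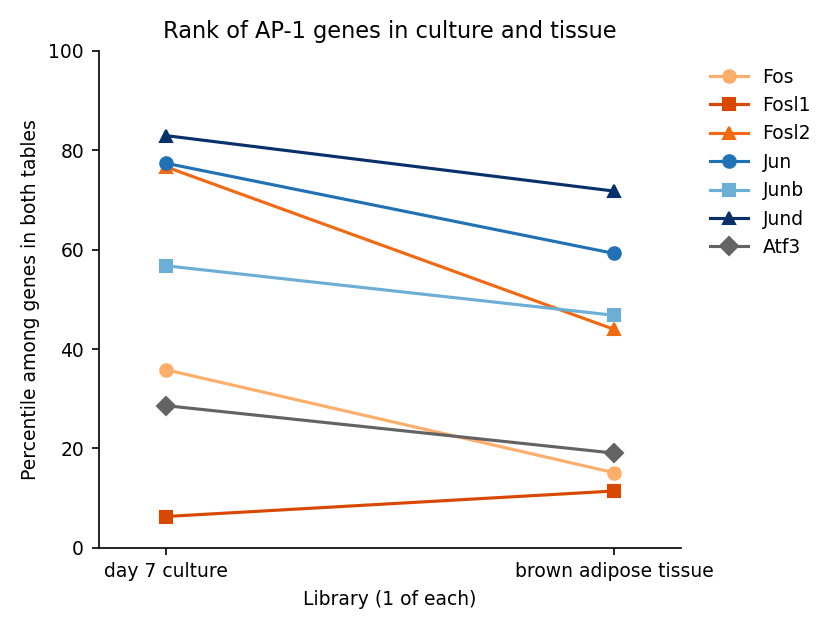
Percentile of each of the 7 AP-1 genes among the genes listed in both tables, in the day 7 culture and in brown adipose tissue, 1 library each. Lines slope down for 6 genes, Fosl2 from 76.6 to 43.9, and up for Fosl1.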

How the data were processed

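Poly(A) RNA was sequenced, per the labels' protocols, at 4 culture days and in 1 tissue. The culture values are FPKM by gene symbol as the authors deposited them, and each listed gene reached at least 1.00 FPKM in 1 library. The tissue values are RPKM by RefSeq transcript as the authors deposited them. Build mm9 and the programs TopHat2 2.0.10, Cufflinks 1.0.3, CASAVA 1.8.2 and SICER are named, per the submitters' processing notes, without the file each one made. The annotation is not given in these sources. Depth is unknown for FPKM. For RPKM, 30 of 30 detected chemosensory receptor transcripts of genes under 1200 bases, and 32 of 39 at any length, gave whole read numbers (tolerance 0.02 reads) at a worth of 0.187 RPKM for each read per kb, with lengths from GRCm38.p6. The total listed FPKM per library lay between 313685 and 368527.

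Samples were grouped by title. Differences of log2(FPKM + 1) were computed on all genes with Python 3.11.15, numpy 2.4.6 and pandas 2.3.3 and plotted with matplotlib 3.10.9, and the size rule was tested on simulated data. Tissue transcripts were matched to symbols by accession (28436 of 29082), the highest standing for a gene. The members and lists were chosen with earlier results of these data known. The rule for named genes took all members, the 3 largest differences per list and step and the 2 nearest genes per member; not all of these are printed, and the choice among them was made after their values were seen. The alternatives were other pseudocounts, value minimums, scalings, sizes of difference and tissue summaries. The other 78 samples of the series (chromatin, input and 3T3-L1 libraries) were not analysed here.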

Additional observations from a re-analysis of the deposited data

How the results depend on the processing

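Of 224 differences of single members under the alternatives tried, 199 kept their side of the 2-fold rule, 17 dropped inside it and 8 passed it newly. Sign changed in 3 of the 224, none of them called: Jund and Atf3 from day -3 to day 0 and Fosl1 from day 2 to day 7, all on rescaling to a common FPKM total. Other pseudocounts, value minimums and sizes cannot turn a sign, so only the scalings of the libraries tried this. Counts in the related lists moved by over 1.5 times in 72 of 448 cases, 33 of them with a size of 2 and 20 with a size of log2 of 1.5.

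A size of 2 on the log2 scale left 1 member lower at day 0 and 0 at day 2, 0 higher at day 7 against day 2 and 0 higher at day 7 against day -3. A size of log2 of 1.5 made 5 lower at day 2, and between day -3 and day 7 it made 2 higher and 2 lower. A pseudocount of 5 left 0 higher between day -3 and day 7, and median-ratio scaling made 2 lower there. Rescaling to a common FPKM total made the summed level 230, 126, 55.6 and 138 FPKM on the 4 days in order, and left 6 of 7 members lowest at day 2, 4 highest at day -3 and 3 with both features, an alternative for these counts chosen after seeing the data, as was leaving out day 2. The latter left 1 member higher and 1 lower at day 7. In the tissue comparison, percentiles over all genes of each table gave 0 members at least 20 points lower and 2 higher, and 6 of 7 higher by any amount. The median of the members was then 13.6 points higher and that of all genes 20.1. With a pseudocount of 5, 4 of the 14 nearest genes were shared, 0 for Fos, Fosl1, Junb and Atf3. The cause of these moves was not tested beyond the changed setting itself. No paired analysis was possible because each group holds 1 library, and leaving out a replicate was not possible either. Unknown depth limits the low culture values, which are those of Fosl1 at day 2 and day 7, near 1 FPKM, and those of Fos and Atf3.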
